A study of Mus musculus with 4 samples.

Results

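The large intergenic noncoding RNA (lincRNA) regions on this mouse array are stretches of genome named by position, each measured by 1 or more probes of 60 bases. The name does not mean that a region holds no annotated gene. Gene probes for Neat1 and 1110038B12Rik, for example, fall inside such regions. A probe was taken when its name gave a chromosome, a start, an end and a strand letter, F for forward and R for reverse. This rule uses names only and no measured value. It found 3229 regions on 20 chromosomes with 4449 probes, out of 56605 probes on the array, and none of the names began with the word lincRNA. Of the regions, 832 had probes for both strands and 2397 for 1 strand, which made 4061 region strands. The forward strand had 2227 probes and the reverse strand 2222. Region length ran from 62 to 538251 bases with a median of 7207. The files place 4358 probes in mm9, every one of them inside its region and on the strand its name gives, and leave 91 without a position.

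RNA was measured in scraped epithelium of jejunum and ileum from mice of 9 weeks on the C57BL/6J background. All mice were Tcrbd-/-, so both genotypes lack the T cells that carry these receptor chains. They were DAO wt/wt or DAO G181R/G181R, where DAO is D-amino acid oxidase, an enzyme that breaks down D-amino acids, and the G181R form is known to lack its activity. Each of the 4 groups (jejunum and ileum, each in both genotypes) is 1 array that carried the mixed RNA of 5 mice, so there is no replicate, no p-value and no error between mice. In scraped bulk tissue, fewer cells of a type and less RNA per cell cannot be told apart.

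Long intergenic RNAs are transcribed, often spliced and capped, and code for no known protein. Many were first found as regions that carry histone marks of an active promoter and of a transcribed gene body away from known genes. They tend to be less abundant and more tissue-restricted than messenger RNAs, and some are made from the opposite strand of a neighbouring gene or from its promoter. How the regions of this array were chosen is not given in the sources used here.

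The probes on which the results below turn are shown first, 5′ to 3′, in lower case as the array carries them. Capitals mark the longest run shared with another probe of the array on the same strand, where at least 20 bases are shared. The 8 probes with the largest tissue differences in wild-type mice share no such run. The first 4 were higher in ileum and the last 4 higher in jejunum.
chr7:82902248-82955248 forward strand, probe at chr7:82926943-82927002: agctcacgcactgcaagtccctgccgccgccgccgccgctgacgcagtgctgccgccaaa
chr11:96175764-96176029 forward strand, probe at chr11:96175970-96176029: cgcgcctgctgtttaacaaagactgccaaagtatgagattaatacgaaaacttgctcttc
chr6:90915489-90940052 reverse strand, probe at chr6:90938329-90938388: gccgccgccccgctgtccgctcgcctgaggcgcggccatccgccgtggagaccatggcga
chr15:78996470-79046809 forward strand, probe at chr15:78996550-78996609: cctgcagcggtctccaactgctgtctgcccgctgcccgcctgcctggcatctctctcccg
chr19:5771425-5848475 forward strand, probe at chr19:5845052-5845111: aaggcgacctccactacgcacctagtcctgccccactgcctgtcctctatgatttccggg
chr1:175660642-175671878 reverse strand, probe at chr1:175662473-175662532: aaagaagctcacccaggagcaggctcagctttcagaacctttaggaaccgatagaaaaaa
chr2:180161459-180189542 reverse strand, probe at chr2:180165707-180165766: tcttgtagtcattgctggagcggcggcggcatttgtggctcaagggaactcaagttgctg
chr6:57583950-57624216 forward strand, probe at chr6:57612816-57612875: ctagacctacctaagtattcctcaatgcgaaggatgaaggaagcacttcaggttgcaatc

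The next 6 probes lie in 6 regions on 6 chromosomes and had nearly the same pattern over the 4 arrays, high in jejunum and lowest in G181R ileum.
chr1:134867906-134885481 reverse strand, probe at chr1:134881352-134881411: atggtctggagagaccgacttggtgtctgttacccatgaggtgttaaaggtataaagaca
chr14:33975934-33998694 reverse strand, probe at chr14:33998629-33998688: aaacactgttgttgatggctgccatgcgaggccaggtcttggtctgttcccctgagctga
chr6:122725638-122752828 forward strand, probe at chr6:122752155-122752214: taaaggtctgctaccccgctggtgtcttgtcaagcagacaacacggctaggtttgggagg
chr7:69008096-69070309 reverse strand, probe at chr7:69008343-69008402: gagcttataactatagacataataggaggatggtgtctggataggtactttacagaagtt
chr8:80581177-80621652 forward strand, probe at chr8:80596463-80596522: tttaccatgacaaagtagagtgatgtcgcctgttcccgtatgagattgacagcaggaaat
chr9:56910620-56919495 forward strand, probe at chr9:56915005-56915064: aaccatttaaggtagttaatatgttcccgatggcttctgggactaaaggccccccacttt

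A further 6 probes, on 3 chromosomes, were lowest in wild-type jejunum and highest in G181R ileum.
chr15:63902437-63908787 forward strand, probe at chr15:63902462-63902521: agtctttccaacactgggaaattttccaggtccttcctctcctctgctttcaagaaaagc
chr15:74477644-74477736 forward strand, probe at chr15:74477677-74477736: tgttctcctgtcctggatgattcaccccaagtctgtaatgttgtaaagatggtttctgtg
chr17:86092322-86093123 forward strand, probe at chr17:86092996-86093055: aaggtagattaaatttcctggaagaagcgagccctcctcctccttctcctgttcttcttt
chr17:88890039-88905680 reverse strand, probe at chr17:88905534-88905593: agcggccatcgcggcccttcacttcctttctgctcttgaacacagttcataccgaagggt
chr2:27394711-27402186 reverse strand, probe at chr2:27395935-27395994: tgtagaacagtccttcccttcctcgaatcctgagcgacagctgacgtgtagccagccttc
chr2:38830900-38841225 reverse strand, probe at chr2:38831380-38831439: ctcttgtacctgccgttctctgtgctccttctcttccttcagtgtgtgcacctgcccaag

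Probes of 4 neighbouring regions of chromosome X, which were lower in G181R ileum, share runs of 26, 33 and 58 bases with one another. Signal on one of them can therefore include RNA from another.
chrX:120324027-120326909 reverse strand, probe at chrX:120324151-120324210: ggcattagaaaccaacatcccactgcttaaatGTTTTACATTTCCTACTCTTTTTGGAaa
chrX:120324027-120326909 reverse strand, probe at chrX:120324278-120324337: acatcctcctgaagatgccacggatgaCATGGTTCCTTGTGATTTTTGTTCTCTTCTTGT
chrX:121004130-121007360 reverse strand, probe at chrX:121004424-121004483: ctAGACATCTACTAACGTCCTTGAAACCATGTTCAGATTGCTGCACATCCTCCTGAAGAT
chrX:121520904-121524132 forward strand, probe at chrX:121523786-121523845: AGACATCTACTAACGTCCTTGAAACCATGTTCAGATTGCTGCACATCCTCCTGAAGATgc
chrX:121520904-121524132 forward strand, probe at chrX:121523847-121523906: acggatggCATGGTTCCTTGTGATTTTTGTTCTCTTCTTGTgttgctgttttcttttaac
chrX:122648893-122652122 forward strand, probe at chrX:122651943-122652002: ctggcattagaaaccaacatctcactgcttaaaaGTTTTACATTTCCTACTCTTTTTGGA

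In the same way, 2 overlapping regions of chromosome 9 share runs of 20 and 23 bases with a probe named for a transcript model, and regions of chromosomes 5 and 14 share 40 and 51 bases. The chromosome 5 and 14 probes were all higher in ileum.
chr9:78104935-78116974 forward strand, probe at chr9:78116774-78116833: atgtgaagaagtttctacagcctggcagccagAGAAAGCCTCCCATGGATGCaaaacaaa
chr9:78107225-78118850 forward strand, probe at chr9:78116834-78116893: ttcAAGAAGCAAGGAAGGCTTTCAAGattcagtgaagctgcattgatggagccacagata
chr14:55433382-55452757 reverse strand, probe at chr14:55444949-55445008: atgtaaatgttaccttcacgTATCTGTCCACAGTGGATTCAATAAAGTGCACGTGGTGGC
chr14:55433382-55452757 reverse strand, probe at chr14:55445108-55445167: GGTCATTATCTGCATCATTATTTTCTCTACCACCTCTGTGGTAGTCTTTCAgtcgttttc
chr5:96591892-96606467 forward strand, probe at chr5:96603301-96603360: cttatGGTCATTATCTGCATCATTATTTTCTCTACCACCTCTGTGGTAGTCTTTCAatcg
chr5:96591892-96606467 forward strand, probe at chr5:96603471-96603530: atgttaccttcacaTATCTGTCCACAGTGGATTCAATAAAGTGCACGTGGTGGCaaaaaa

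Fewer lincRNA probes than coding probes gave a signal. A probe was well above background, by the flag of the scanner software, for 46.2% of lincRNA probes in wild-type jejunum, 50.7% in G181R jejunum, 48.3% in wild-type ileum and 50.4% in G181R ileum. Coding probes, named through a RefSeq mRNA accession, reached 68.9% to 71.5%. Probes of RefSeq noncoding transcripts reached 35.6% to 39.4%, below the lincRNA probes on each of the 4 arrays. On all 4 arrays together 1876 lincRNA probes (42.2%) were well above background and 1938 (43.6%) on none. Over all probes these shares were 54% and 34.7%. Both G181R arrays flagged more lincRNA probes than their wild-type arrays. The share over all probes was also higher in G181R, at 60.4% against 57.4% in jejunum and 60.2% against 59.3% in ileum. The dimmest flagged lincRNA probe was at 7.42 and 7.24 in wild-type jejunum and ileum against 5.98 and 6.32 in G181R. The lower limit thus differed between arrays. The part of that limit in the counts was not tested.

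Detection of lincRNA probes rose with the GC content of the probe, while detection of coding probes was nearly level. Of lincRNA probes with up to 35% GC, 32.2% were well above background on all 4 arrays, against 61.5% of those over 55%. For coding probes the same shares were 66.4% and 68.8%. RefSeq noncoding probes also rose, from 23.2% to 58%. In the lowest GC class lincRNA detection was thus less than that of coding probes by a wide margin, and in the highest class the classes lay close together.

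**Figure D1:**
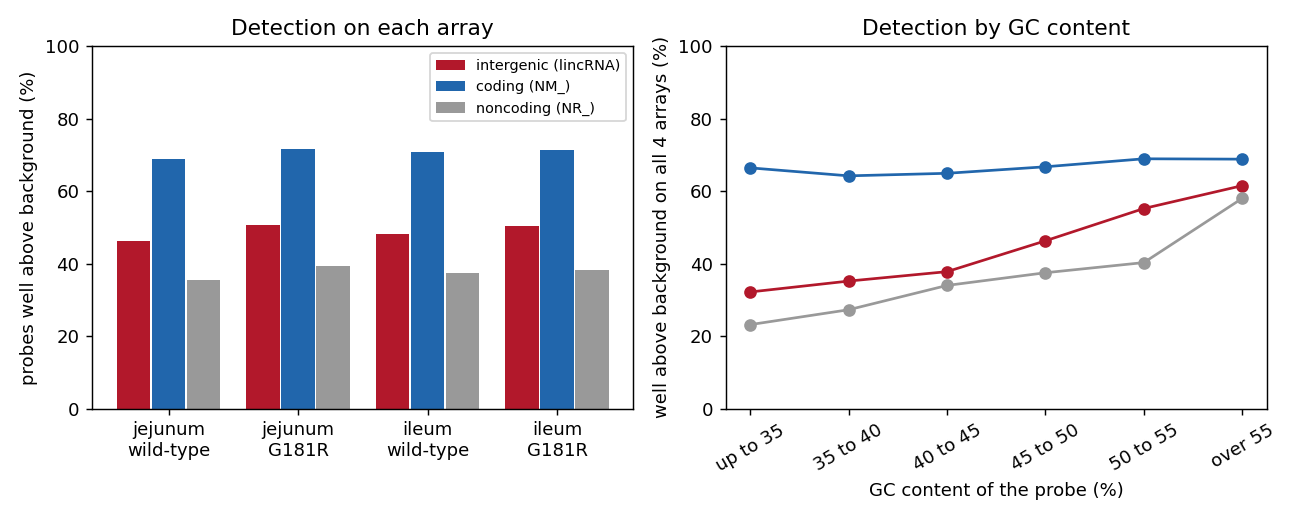
Left, bars give the share of probes well above background (%) on each of the 4 arrays for lincRNA, coding and RefSeq noncoding probes. Right, points give the share well above background on all 4 arrays by GC content of the probe. LincRNA probes rise from 32.2% to 61.5% and coding probes stay between 64.2% and 68.9%.

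Signal was often found for 1 strand of a region, but single probes were also often undetected. Of all lincRNA probes 42.2% were well above background on all 4 arrays and 43.6% on none. Whether 1-strand signal exceeded what unrelated probes would give was not tested. Of the 832 regions with probes for both strands, 232 (27.9%) had both strands well above background on all 4 arrays and 372 (44.7%) had 1 strand only. A closer view comes from 216 pairs of lincRNA probes that are complementary to each other over at least 20 bases. Counted from each probe in turn, 396 partners lay in the same region and 36 in another region. In 49 of the 216 pairs (22.7%) both probes were well above background on all 4 arrays. In 63 (29.2%) 1 strand was so on all 4 arrays and the other on none. A further 60 pairs joined a lincRNA probe to a RefSeq gene probe complementary over at least 20 bases. They hold 47 lincRNA probes, some of them paired with several genes, so the pairs are not separate loci. Both probes of the pair were well above background on all 4 arrays in 33, the gene probe alone in 18 and the lincRNA probe alone in 2.

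Genotype differences in jejunum were few. Differences are given as log2 of G181R over wild-type, after each array's 75th percentile was subtracted, for probes well above background on both arrays. Of 1999 lincRNA probes, 23 were at least 2-fold higher in G181R and 15 at least 2-fold lower, which is 1.9%. Over all probes the share was 1.42%, and 1.38% for coding probes, so the lincRNA share lay near the background. With normexp, another background correction (offset 50), 5 lincRNA probes passed 2-fold, all higher in G181R. Normexp counts here and below are for lincRNA probes only, with no share over all probes beside them. The median lincRNA difference was -0.04 against -0.01 for all probes. Probes printed 10 times had a spot SD of such a difference of 0.03 to 0.08 (5 lincRNA probes), which covers spots of 1 hybridisation and not mice.

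The highest value in jejunum belonged to a probe on the forward strand of chr4:105035450-105059250. Its processed signal was 8.5 in wild-type jejunum, 87.2 in G181R jejunum, 7.15 in wild-type ileum and 5.92 in G181R ileum. It stood out in G181R jejunum alone, with a difference of 3.32 there, and was not well above background in either ileum. With normexp the difference was 1.17. A forward-strand probe of chr1:88384134-88384902 gave 18.9 in wild-type jejunum, 84.4 in G181R jejunum, 41.3 in wild-type ileum and 27.1 in G181R ileum. It too was highest in G181R jejunum, at 2.13, while its difference in ileum was -0.53. Normexp gave 0.79 and -0.13, both short of 2-fold.

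Among the bright probes, the reverse strand of chr13:104592755-104593231 gave 919 in wild-type jejunum, 3623 in G181R jejunum, 3617 in wild-type ileum and 7734 in G181R ileum. The reverse strand of chr17:71242333-71273533 gave 1912 in wild-type jejunum, 6573 in G181R jejunum, 8523 in wild-type ileum and 21782 in G181R ileum. Both were higher in G181R in both tissues, by 1.95 and 1.75 in jejunum and 1.17 and 1.43 in ileum. Normexp left them at 1.89 and 1.73 in jejunum. The nearest gene probe to the first, 16 kb away on the same strand, is Erbin, a scaffold protein of the basolateral membrane, at -0.09 in jejunum.

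Lower in G181R jejunum were 2 probes for the forward strand of chr19:40663924-40669352. Their signals were 46.5 in wild-type jejunum, 18.8 in G181R jejunum, 10.8 in wild-type ileum and 5.75 in G181R ileum for the first. The second gave 25.3 in wild-type jejunum, 10.6 in G181R jejunum, 3.42 in wild-type ileum and 1.46 in G181R ileum. The first was not well above background in G181R ileum and the second in neither ileum, so only their jejunal values are compared. The genotype differences there were -1.34 and -1.29, and the normexp values, -0.48 and -0.25, fell short of 2-fold. The first is the exact reverse complement of a probe for Tctn3, a protein of the ciliary transition zone, and that probe was not well above background on all 4 arrays. The nearest RefSeq-named Tctn3 probe read 31.6 in wild-type jejunum, 34.3 in G181R jejunum, 28.6 in wild-type ileum and 25.8 in G181R ileum.

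Genotype differences in ileum were more numerous and again near the background. Of 2056 lincRNA probes, 44 were at least 2-fold higher in G181R and 47 at least 2-fold lower, 4.43% in all, against 4.67% of all probes and 5.16% of coding probes. Normexp gave 22 in all. Differences of at least 4-fold were seen for 14 of the 2056, against 193 of 32430 over all probes. The median was 0.04 against 0.02 for all probes. With the probes of this comparison put in 5 bins of mean signal, the lincRNA share was 4% and the coding share 9.19% in the dimmest bin. In the brightest bin they were 3.5% and 2.78%.

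The highest ileal difference was the reverse strand of chr1:88187397-88187862, at 8.3 in wild-type jejunum, 22.5 in G181R jejunum, 32.5 in wild-type ileum and 332 in G181R ileum. It was 3.43 in ileum and 1.41 in jejunum, higher in G181R in both tissues. Normexp gave 2.25 and 0.28, so the jejunal value depends on the background correction. The next was the forward strand of chr15:63902437-63908787, at 87.2 in wild-type jejunum, 249.8 in G181R jejunum, 324 in wild-type ileum and 1374 in G181R ileum, a difference of 2.16 in ileum and 1.48 in jejunum.

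That probe is 1 of the 6 shown above that were lowest in wild-type jejunum and highest in G181R ileum. The groups of like pattern were formed after the values were seen, from the 85 lincRNA probes well above background on all 4 arrays whose range over the arrays was at least 4-fold, and they carry no test. Such a range was seen for 85 of 1876 lincRNA probes and for 1839 of 30545 over all probes. The groups of at least 3 probes numbered 9 and held 64 of the 85. Only some of them are described here, and in the rest the median genotype difference in ileum ran from -0.86 to 1.46. In the 6 probes the genotype difference ran from 0.77 to 1.48 in jejunum and from 1.85 to 2.16 in ileum. With normexp chr17:88890039-88905680 was 0.17 and 0.995, and chr15:74477644-74477736 was 0.29 and 0.97, all short of 2-fold. For 3 of the others it gave 1.98, 1.91 and 1.77 in ileum. No 2 of them share a run of more than 9 bases. Outside the lincRNA class 22 probes lay within a root mean square distance of 0.25 of their mean pattern. The closest with a RefSeq name were Enho, which encodes a secreted peptide, Spsb1 and 4930550C17Rik. The host transcript Mir99ahg, a long noncoding RNA that contains microRNA genes, moved in a similar way: 29.1 in wild-type jejunum, 76.2 in G181R jejunum, 103 in wild-type ileum and 420.1 in G181R ileum.

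With the brightest probe taken per region and strand, the 4 lowest ileal differences belonged to the steep pattern. The group holds the 6 shown above and 1 further region, 7 in all on 7 chromosomes. The forward strand of chr8:80581177-80621652 gave 1370.5 in wild-type jejunum, 858 in G181R jejunum, 206 in wild-type ileum and 34.9 in G181R ileum. For chr6:122725638-122752828, forward strand, the signal was 619 in wild-type jejunum, 353 in G181R jejunum, 107 in wild-type ileum and 16.3 in G181R ileum. In all 7 the order was the same, from wild-type jejunum down to G181R ileum, with differences of -0.84 to -0.64 for genotype in jejunum, -2.64 to -2.12 for genotype in ileum and -4.75 to -4.28 for tissue in G181R. For the 6 shown, normexp gave -0.76 to -0.59, -1.79 to -0.47 and -3.79 to -1.69, and chr7:69008096-69070309 was the one short of 2-fold for genotype in ileum, at -0.47. The longest run that any 2 share is 13 bases. Probes of 10 RefSeq-named genes lay within 0.25 of the mean pattern, among them Mcpt-ps1, Maob, Nup155, Lhx9 and Pax6. Maob, the gene of monoamine oxidase B, read 252 in wild-type jejunum, 149.6 in G181R jejunum, 38.1 in wild-type ileum and 7.44 in G181R ileum.

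Regions of chromosome X made up most of another pattern. For the reverse strand of chrX:120324027-120326909 1 probe gave 24.6 in wild-type jejunum, 22.5 in G181R jejunum, 51.7 in wild-type ileum and 7.81 in G181R ileum. The other gave 36 in wild-type jejunum, 36.3 in G181R jejunum, 89.6 in wild-type ileum and 18.7 in G181R ileum. For the forward strand of chrX:121520904-121524132 1 probe gave 14.4 in wild-type jejunum, 18.9 in G181R jejunum, 41.4 in wild-type ileum and 6.69 in G181R ileum. These were highest in wild-type ileum and lowest in G181R ileum, with little genotype difference in jejunum. Their ileal genotype differences were -2.65, -2.18 and -2.55. Normexp gave -0.67, -0.93 and -0.60.

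Markers of smooth muscle moved with this pattern, and some markers of other cell types were also lower in G181R ileum. Of 12 smooth muscle genes, 11 were measured in the ileal genotype comparison, 8 were at least 2-fold lower in G181R, and the median was -2.51. In jejunum the median was 0.12 with none past 2-fold. The summed processed signal of the 12 was 11996 in wild-type jejunum, 12220 in G181R jejunum, 22355 in wild-type ileum and 9251 in G181R ileum. The desmin gene Des read 39.3 in wild-type jejunum, 52.8 in G181R jejunum, 129 in wild-type ileum and 21.4 in G181R ileum. Nerve and glia genes were below 0 in G181R ileum for 5 of 5 measured (Stmn2 -2.01 and Uchl1 -1.41), and fibroblast genes for 6 of 6, with a median of -0.64. The fibroblast genes did not follow the rest of the pattern. They were below 0 by genotype in jejunum too, for 6 of 6, and their median tissue difference in wild-type was -0.49. Of 5 adipocyte genes 3 were at least 2-fold lower in G181R ileum and 2 were above 0. For tissue in wild-type, Adipoq and Cfd were at 3.84 and 3.58 and Cidec at -1.68. The part of these cell types in the chromosome X signals was not tested. Of 7 general epithelial markers none was 2-fold different by genotype, but markers of single epithelial cell types were. In ileum 3 of 3 tuft cell genes were below 0 (Dclk1 -1.37 and Sucnr1 -1.73), as were 5 of 5 enteroendocrine genes, none of the 5 past 2-fold. Of 5 ileal enterocyte genes all 5 were below 0, and 1 passed 2-fold, the receptor gene Cubn at -2.62, while Fabp6 was at -0.06. Of 5 measured jejunal enterocyte genes 3 were above 0 and 2 below, and 1 passed 2-fold, the transcription factor gene Gata4 at 1.17.

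**Figure D2:**
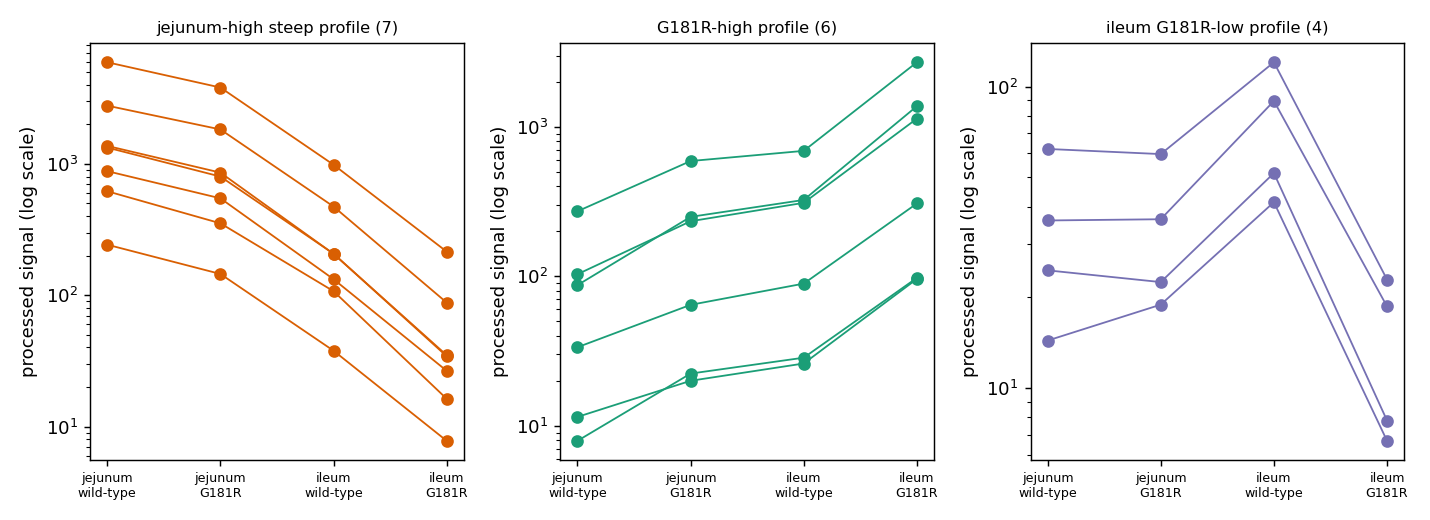
Processed signal (log scale) on the 4 arrays for each lincRNA probe of the steep pattern (7 probes), the pattern highest in G181R (6 probes) and the pattern lowest in G181R ileum (4 probes). Each line is 1 probe, and within a panel the lines run nearly parallel.

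The genotype differences of the 2 tissues use no array in common. Over the 1876 lincRNA probes well above background on all 4 arrays they were correlated with Pearson's r of 0.42 and Spearman's rho of 0.36, against 0.50 and 0.53 over 19508 coding probes. Probes are not independent replicates, and all share the 4 hybridisations. Of 21 lincRNA probes at least 2-fold higher in jejunum, 8 were so in ileum, which is 38.1% of the jejunal and 22.9% of the 35 ileal ones, against 51.2% and 22% over all probes. Of 9 lower in jejunum and 44 lower in ileum, 2 were shared, 22.2% and 4.55%, against 32.3% and 6.24% over all probes. Those lower in both were the reverse strands of chr1:135956616-135957485, at -1.39 and -1.45, and of chrX:92151384-92157256, at -1.14 and -1.09. With normexp these 4 values were -0.85, -0.72, -0.26 and -0.19, all short of 2-fold. None was 2-fold or more in opposite directions. The genotype difference itself differed between tissues by at least 2-fold for 77 probes (40 higher in ileum and 37 lower), 4.1% against 3.48% of all probes.

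Some probes passed the background flag in only 1 of the groups compared, so that their difference is a bound. At least 2-fold, 10 such lincRNA probes were higher and 19 lower in G181R jejunum, and 17 higher and 22 lower in G181R ileum, out of 4449. Over all 56605 probes these counts were 143, 261, 203 and 338. The reverse strand of chr2:117781720-117937595 read 56.9 in wild-type jejunum and was not well above background on the other 3 arrays, at least 9.98-fold lower in G181R jejunum. The reverse strand of chr13:53100475-53113850 read 57.1 in wild-type ileum alone and was at least 8.86-fold lower in G181R ileum. Each of these rests on 1 array, and the folds hold for the processed signal only. With normexp the log2 differences were -1.09 for the chromosome 2 probe and -0.93 for the chromosome 13 probe. In the tissue comparisons 32 such probes were higher and 49 lower in wild-type ileum, and 26 higher and 50 lower in G181R ileum, against 578, 656, 499 and 626 over all probes.

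**Figure D3:**
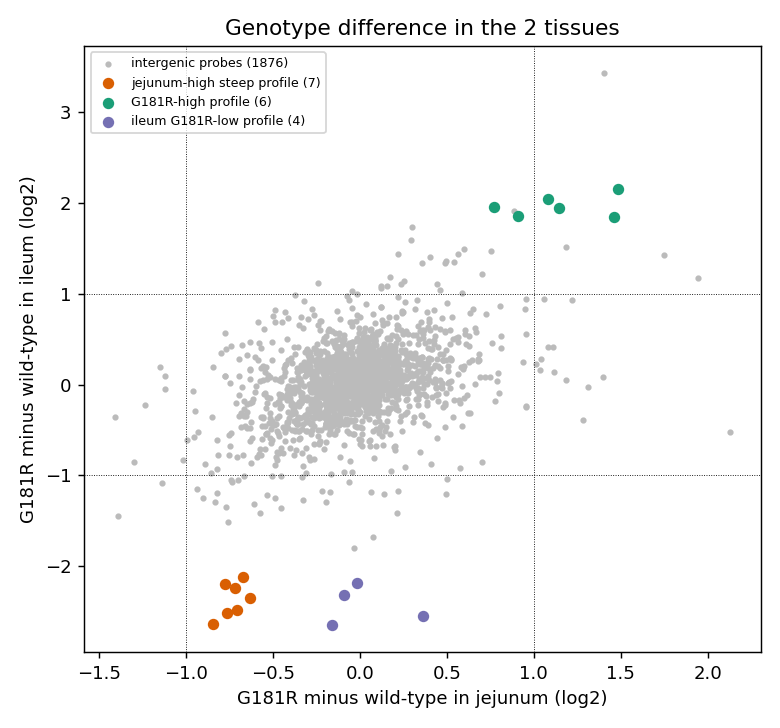
Each point is 1 of 1876 lincRNA probes, with its log2 G181R minus wild-type difference in jejunum (horizontal) and in ileum (vertical). Dotted lines mark 2-fold. Coloured points are the steep pattern, the pattern highest in G181R and the pattern lowest in G181R ileum. These lie towards the lower and upper edges of the ileal axis, and the other groups of like pattern are not coloured.

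Tissue differences were larger and leaned towards jejunum. In wild-type mice 83 of 1925 lincRNA probes (4.31%) were at least 2-fold higher in ileum and 161 (8.36%) at least 2-fold lower. Over all probes these shares were 6.81% and 8.42%. Both directions together made 12.7%, against 15.2% of all probes and 16.9% of coding probes. In G181R mice 92 of 2061 (4.46%) were higher and 144 (6.99%) lower, against 6.91% and 8.14% of all probes. In either direction all probes reached 15.1% and coding probes 17.1%. At 2-fold, lincRNA probes were thus less often higher in ileum than all probes, and not more often higher in jejunum. Normexp gave 79 lincRNA probes at 2-fold in wild-type and 75 in G181R. Below 0 lay 65.7% of lincRNA differences in wild-type, against 53% of all probes, and 58.8% in G181R, against 51.7%. The median lincRNA difference was -0.20 in wild-type and -0.09 in G181R, against -0.04 and -0.02 for all probes.

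**Figure D4:**
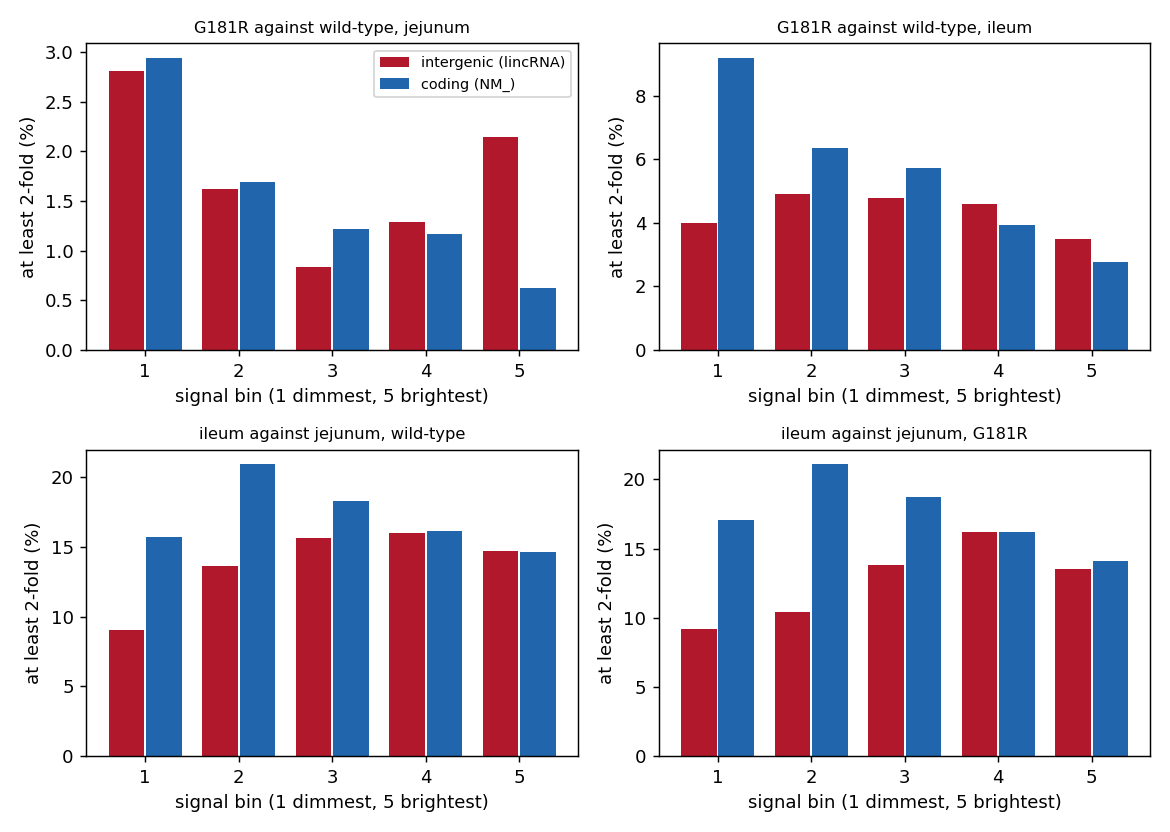
Bars give the share of probes (%) at least 2-fold different in each of 4 comparisons, for lincRNA and coding probes in 5 bins of mean signal. In both tissue comparisons the lincRNA share is below the coding share in the dimmest bin, at 9.02% against 15.7% in wild-type.

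Higher in ileum were probes of both genotypes with large differences. The forward strand of chr7:82902248-82955248 gave 4656 in wild-type jejunum, 6604 in G181R jejunum, 138181 in wild-type ileum and 132528 in G181R ileum, a difference of 4.65 in wild-type and 4.19 in G181R. The nearest gene probe, Akap13, a scaffold for protein kinase A, 27.7 kb away on the same strand, was at 1.08 in wild-type. The reverse strand of chr6:90915489-90940052 gave 1747 in wild-type jejunum, 1930.3 in G181R jejunum, 25638 in wild-type ileum and 22363 in G181R ileum. A forward-strand probe of chr15:78996470-79046809 gave 190.2 in wild-type jejunum, 197 in G181R jejunum, 2789 in wild-type ileum and 2569 in G181R ileum. These 2 had similar tissue differences, 3.63 and 3.63 in wild-type.

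A pair of regions lay in the Hoxb cluster, whose homeobox genes set position along the body axis. The forward strand of chr11:96175764-96176029 gave 33.9 in wild-type jejunum, 26.3 in G181R jejunum, 983 in wild-type ileum and 574 in G181R ileum. Its difference was 4.61 in wild-type and 4.32 in G181R, and Hoxb4, 6.92 kb away on the same strand, was at 1.99 and 1.59. Nearby, the forward strand of chr11:96173788-96174352 was not well above background in jejunum and reached 54.9 in wild-type and 25.8 in G181R ileum. By the processed signal this was at least 6.3-fold and 4.04-fold higher. For this region normexp gave log2 differences of 0.69 and 0.39, short of 2-fold. Hoxb5 beside it was at 4.18 and 3.68. Both regions and both genes were higher in ileum.

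Higher in jejunum was the forward strand of chr19:5771425-5848475, which gave 50245 in wild-type jejunum, 43482 in G181R jejunum, 787 in wild-type ileum and 1173 in G181R ileum. Its difference was -6.24 in wild-type and -5.34 in G181R, the largest of the jejunum-high lincRNA probes in both genotypes. The nearest gene probe is for Neat1, a long noncoding RNA that builds nuclear paraspeckles. It lies inside the same region, on the opposite strand 0.674 kb away, and was at 0.18 and 0.33. The reverse strand of chr1:175660642-175671878 gave 2684 in wild-type jejunum, 1826 in G181R jejunum, 47.2 in wild-type ileum and 72.1 in G181R ileum, a difference of -6.07 and -4.80. Ifi204, an interferon-induced gene 15.2 kb away on the same strand, was at -1.24 and -0.21. The chromosome 9 regions shown above were both higher in jejunum, and the first gave 24296 in wild-type jejunum, 19331 in G181R jejunum, 3387 in wild-type ileum and 2377 in G181R ileum. Gm10639, 36.5 kb away on the same strand, was at -2.51 in wild-type.

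In few places did every measured probe of a region strand with more than 1 probe pass 2-fold. In the wild-type tissue comparison these were chr14:22267795-22319045 forward (1.25 and 1.31), chr14:55433382-55452757 reverse (1.16 and 1.20), chr17:35080914-35090009 reverse (1.33 and 1.84) and chr5:96591892-96606467 forward (1.02, 1.11 and 1.27). The second and the fourth share sequence, as shown above, and a pair of the chromosome 5 probes share 32 bases with each other, so these do not count as separate evidence. One probe of each also shares 26 bases with a probe for Ifitm3, an interferon-induced membrane protein, which was at -0.09 in this comparison. A gene probe inside chr17:35080914-35090009 on the same strand, for 1110038B12Rik, was at 1.17.

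The tissue differences of the 2 genotypes, which share no array, were correlated over 1876 lincRNA probes with r of 0.81 and rho of 0.73, against 0.89 and 0.85 for coding probes. Of the probes 2-fold higher in ileum, 38 were shared, 47.5% of the 80 in wild-type and 53.5% of the 71 in G181R, below the 66.4% and 69.6% over all probes. Of those 2-fold lower, 99 were shared, 64.7% of 153 and 71.2% of 139, against 70.6% and 69.8%. A pair of chromosome X probes had 2-fold differences of opposite sign in the genotypes, which normexp did not keep at 2-fold.

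**Figure D5:**
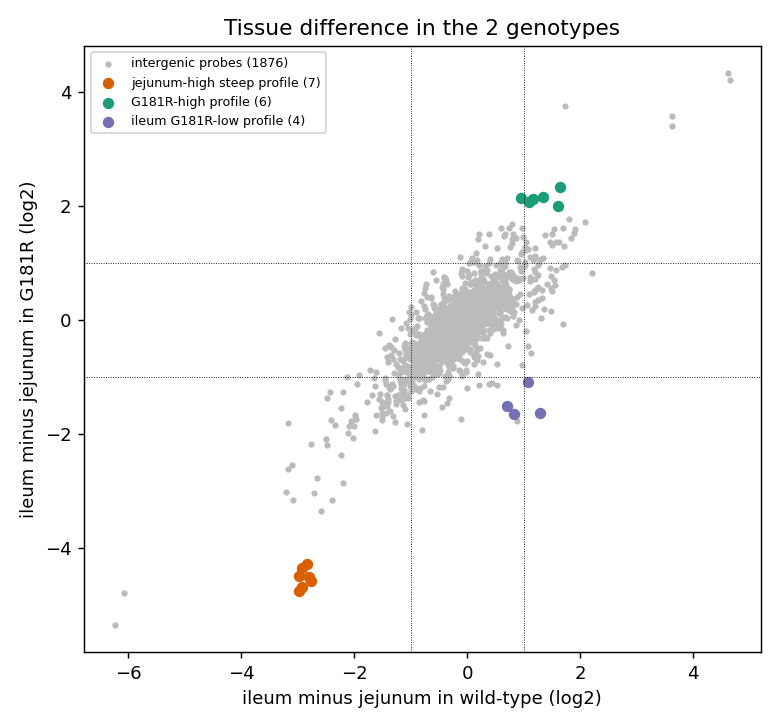
Each point is 1 of 1876 lincRNA probes, with its log2 ileum minus jejunum difference in wild-type (horizontal) and in G181R (vertical). Dotted lines mark 2-fold. Most points follow the diagonal, and the chromosome X probes of the pattern lowest in G181R ileum lie to the lower right.

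Probes of 1 region resembled each other more on 1 strand than across strands. For the wild-type tissue difference, 118 pairs on the same strand had rho of 0.64 and the same sign in 79.7%, and 278 pairs on opposite strands had rho of 0.21 and the same sign in 57.9%. For the genotype difference in jejunum the values were 0.33 over 134 same-strand pairs and 0.05 over 297 opposite-strand pairs. Pairs of a region share probes and sometimes sequence, so these are descriptions.

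Within 10 kb, likeness to the nearest gene probe also followed the strand, most clearly for tissue. Of 4358 placed lincRNA probes, 3711 had a RefSeq gene probe within 100 kb and 1098 within 10 kb. Within 10 kb on the same strand, r of the wild-type tissue differences was 0.37 over 245 pairs, and on the opposite strand 0.03 over 164. In G181R the values were 0.35 over 266 and 0.09 over 186. For genotype in ileum they were 0.26 over 262 and 0.14 over 184, and in jejunum 0.14 over 256 and 0.06 over 172. Farther away the order did not always hold. For genotype in jejunum at 10 to 100 kb, r was 0.06 on the same strand and 0.09 on the opposite strand. At 100 kb or more for genotype in ileum, r was 0.18 and 0.29. Of 32 same-strand lincRNA probes within 10 kb that differed 2-fold between tissues in wild-type, 8 had a neighbour 2-fold different in the same direction and 4 in the opposite direction.

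Known long noncoding RNA genes give a comparison outside the region-named probes. Of 75 listed genes 64 were on the array and 43 were measured in each comparison. For genotype, 1 was 2-fold higher in jejunum, and 1 higher and 5 lower in ileum. Over all probes 0.675% were higher in jejunum, and 1.81% higher and 2.85% lower in ileum. Those lower in G181R ileum were Meg3, Rian, Snhg11, Peg13 and Carmn. Meg3, a maternally expressed imprinted transcript, read 46.6 in wild-type jejunum, 47.7 in G181R jejunum, 271 in wild-type ileum and 120.1 in G181R ileum. Carmn, a transcript of smooth muscle and heart, read 107 in wild-type jejunum, 109 in G181R jejunum, 241 in wild-type ileum and 66.1 in G181R ileum and was -1.79 in ileum, the same direction as the smooth muscle markers. For tissue in wild-type, 4 were higher in ileum and 4 lower, against 6.81% and 8.42% of all probes. Gata6os, transcribed divergently from the gene of the transcription factor Gata6, read 293 in wild-type jejunum, 222 in G181R jejunum, 40.8 in wild-type ileum and 36.9 in G181R ileum, a difference of -3.09. Fendrr read 410.1 in wild-type jejunum, 334 in G181R jejunum, 171 in wild-type ileum and 97.8 in G181R ileum, a difference of -1.50.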

How the data were processed

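Intensity values were used as deposited. The scanner software (Agilent Feature Extraction, version 11.5.1.1) had corrected each spot for background and written a processed signal, per the file headers. Other values used, also per the file headers, were 0 or 1 flags for signal well above background, outliers and saturation. Feature Extraction is also named in the submitters' processing notes. Probe positions are in mm9 (NCBI37), per the file headers. The deposited value table was not used.

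Spots of 1 probe were averaged as log2 processed signal, leaving outlier spots out. From each array its 75th percentile, taken across every non-control probe, was then removed. There was 1 array of pooled RNA per group, so log2 differences are given without a test. A probe was counted at 2-fold when well above background on both arrays. With 1 array only, "at least" folds set the bright array against the higher of the dim probe's own signal and the lowest signal well above background there. The number of arrays limits the precision. No spot was saturated. Gene symbols were taken through RefSeq accessions of GRCm38.p6 for 31746 of 32115 probes.

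Probes named in the text are, for 1 probe per region and strand, the 8 highest and 8 lowest per comparison, those 2-fold in both tissues or genotypes, regions with several probes at 2-fold, the 3 largest bounds and the 4 largest differences of genotype differences per sign. The text gives a selection of them. Members and lists were chosen with earlier results of these data known. Groups of like pattern came from average linkage at a distance of 0.25. Alternatives were other scalings, normexp (limma 3.58.1, R 4.3.3), other background filters and other summaries per region. The counting step was tested on simulated data. Python 3.11.15 and pandas 2.3.3 were used.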

Additional observations from a re-analysis of the deposited data

Results flagged for a closer look

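In 2 chromosome X regions 1 probe each differed at least 2-fold between tissues in opposite directions in the genotypes. On the forward strand of chrX:121520904-121524132 1 probe was 1.28 in wild-type and -1.63 in G181R (ileum minus jejunum, log2). On the reverse strand of chrX:120324027-120326909 1 probe was 1.07 and -1.09. A second probe of each strand was at 0.96 and -0.79 for the first region and 0.83 and -1.66 for the second. These had the same signs but were not 2-fold in both genotypes. With normexp the flagged probes were 0.30 and -0.33 for the first region and 0.54 and -0.40 for the second, still of opposite sign and all short of 2-fold. The difference was not tested, since each group is 1 array. The regions share sequence, so they are not separate observations, and the smooth muscle markers moved with them: their median tissue difference was 1.47 in wild-type and -1.07 in G181R.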

How the results depend on the processing

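No paired analysis was possible because each group is 1 array of pooled RNA. The background filter and the background correction moved the counts of lincRNA probes. Counts under these settings are given for lincRNA probes alone, so they do not show whether other probes changed as much. With normexp, lincRNA probes at least 2-fold different numbered 5 for genotype in jejunum, 22 for genotype in ileum, 79 for tissue in wild-type and 75 for tissue in G181R. The share of these that were higher went from 60.5% to 100% in jejunum and from 48.4% to 59.1% for genotype in ileum. Without a background filter the counts were 424, 484, 761 and 782, and the medians of all probes shifted by -0.10, -0.14, -0.23 and -0.05. The median lincRNA difference for genotype in ileum then reversed, to -0.13. The cause was not tested. Other scalings, the filter on all 4 arrays and both summaries per region kept all 4 counts within 1.5 times. Of 107 named differences none changed sign under another scaling or normexp, and 43 fell below 2-fold with normexp. By the 99th percentile of negative control spots, 3129, 3283, 3139 and 3182 lincRNA probes were above background on the 4 arrays, more than by the flag.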
